A study of Homo sapiens with 6 samples.

Results

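The clustered protocadherins are a family of cadherin-like adhesion proteins encoded side by side on the long arm of chromosome 5. They were taken as every row of the deposited expression table whose GENCODE 29 symbol begins with PCDHA, PCDHB or PCDHG and whose annotated type is protein-coding, with no filter on expression. This gave 53 genes of the 65198 rows in the table: 15 in the alpha cluster (chr5:140786136-141012347), 16 in the beta cluster (chr5:141051135-141249365) and 22 in the gamma cluster (chr5:141330571-141512981), all on the plus strand of GRCh38. The RNA came from a pair of derivatives of the human basal-like breast adenocarcinoma line MDA-MB-231 that each carry a tetracycline-inducible short hairpin RNA. The Tet-shHOTAIR derivative (shHOTAIR) carries a hairpin against HOTAIR, a long non-coding RNA of the HOXC locus, and the Tet-shCtrl derivative (shCtrl) carries a scrambled hairpin. Both groups received doxycycline at 1 µg/ml over 96 h, and each was grown as 3 independent repeats, giving 6 poly(A)-selected libraries. The labels name 1 derivative per hairpin and no untreated cells, so each p-value compares repeats of 1 derivative with repeats of another.

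Clustered protocadherins are known as cell surface proteins, many of which bind the same isoform on a neighbouring cell. The family is best known in neurons, where each cell uses a small set of isoforms, chosen at their promoters with the help of CTCF and cohesin, and where this set gives the cell an identity used in dendrite self-avoidance and wiring. In the alpha and gamma clusters each large variable exon has its own promoter and is spliced to constant exons shared by the whole cluster, whereas each beta gene is a single-exon gene with its own promoter and no constant exon. In epithelial tumours the clusters are known as a stretch of chromosome 5 that is often silenced by DNA methylation as a block.

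The promoters were read for short words that members of a cluster have in common. RefSeq promoter windows (GRCh38.p14, from 250 bases before to 50 bases after the annotated start) were matched by symbol for 47 of the 53 genes. PCDHA3, PCDHA13, PCDHB6, PCDHB11, PCDHGA12 and PCDHGC5 were not matched. In each cluster the 9-base word held by the most promoters upstream of the start was looked up on both strands. It was GATGTCGCT in alpha (9 of 13 windows), GGTGGCGCT in beta (13 of 14) and GCGCCGCTG in gamma (10 of 20), against 0.105%, 0.501% and 1.28% of all 35116 promoter windows in the table. Each word was picked as the commonest in these same windows, so an excess over all windows was built in and tests nothing. All windows also include those of the members. No matched member of another cluster held a cluster's word. All 3 words contain CGCT, the core of the element known in protocadherin promoters as the conserved sequence element, and CGCT alone was in 46 of the 47 windows (97.9%) and in 70% of all windows. The stretches below show the word in capitals with its flanks, all on the plus strand, for members whose values the results turn on.
PCDHA12: tcagtcacatGATGTCGCTctacactcag
PCDHB2: agagacgcggGGTGGCGCTgcagccttag
PCDHB8: gaggacccgtGGTGGCGCTgcaggataag
PCDHB16: gagaacgcgtGGTGGCGCTgcaggttaag
PCDHB13: gaggacgcgtGGTGGCGCTgcaggataag
PCDHGB1: caacctctggGCGCCGCTGtcgaccaaaa
PCDHGA9: aggactctgaGCGCCGCTGttgatcaact
PCDHGA11: tgggctctagGCGCCGCTGctcaccaatc
They lie at chr5:140875245-140875273 (PCDHA12), chr5:141094545-141094573 (PCDHB2), chr5:141177778-141177806 (PCDHB8), chr5:141182311-141182339 (PCDHB16), chr5:141213866-141213894 (PCDHB13), chr5:141350027-141350055 (PCDHGB1), chr5:141402716-141402744 (PCDHGA9) and chr5:141420974-141421002 (PCDHGA11). Counted from the RefSeq start, the word began at position -66 in PCDHB16, -43 in PCDHB13 and -2 in PCDHB8. In GENCODE 29 the single exon of PCDHB16 (chr5:141181399-141186399) already includes its stretch. PCDHB1 was the 1 beta window without the beta word, and the windows of PCDHGB2 and PCDHGC3 did not hold the gamma word.

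The exons also set what can be measured for each gene. In GENCODE 29 the 15 alpha genes share 3 stretches of exon at the end of the cluster, 2866 bases in all, and the 22 gamma genes share 3 stretches of 2181 bases. By position, exon that no other member overlaps made up between 43.4% and 80.8% of the exonic bases of an alpha gene and between 35.6% and 72.4% of those of a gamma gene, so a read from the constant exons alone belongs to no single member. The exons of the 16 beta genes do not overlap each other, but their sequences do resemble each other. Counted as 50-base words, 19.5% to 65.2% of the sequence of an alpha gene and 30.9% to 71.1% of that of a gamma gene also occurs in other members of its cluster. Of the 50-base words of PCDHB8, 33% also occur in PCDHB13, which lies further along the cluster, and 7.4% occur in PCDHB16.

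The deposited values are FPKM, fragments scaled by transcript length and by library size, so levels can be set side by side between genes. Absolute depth is unknown. Read from the smallest steps between low values, the value of 1 step relative to shCtrl 1 was 0.812 and 0.839 in shCtrl 2 and 3 and 0.664, 0.595 and 0.717 in shHOTAIR 1, 2 and 3, so a low gene could be seen at a lower FPKM in the shHOTAIR libraries. HOTAIR was barely detected in either group, with 0, 0.0128 and 0.0132 FPKM in shCtrl and 0, 0 and 0.0113 FPKM in shHOTAIR (adjusted p = 0.706 in limma), so the files give no check of the knockdown. Of the markers of the line, VIM, CD44, EGFR, MSN and CAV1 were all at a mean of at least 1 FPKM. Their levels were not all alike in the groups. Mean VIM was 948 FPKM in shCtrl and 393 FPKM in shHOTAIR, and MSN 229 and 177 FPKM. EGFR was higher in shHOTAIR (76.7 against 157 FPKM), as was CAV1 (116 against 218 FPKM). For these genes the limma adjusted p was at most 0.0046, while CD44 overlapped between groups. Of the markers low or absent in such lines, ESR1, PGR, CDH1 and EPCAM were at most 0.114 FPKM in any library, while ERBB3 was not low, at 12.3 ± 1.1 FPKM in shCtrl and 7.17 ± 2.5 FPKM in shHOTAIR (SD, n = 3 each; limma adjusted p = 0.066). Of 11 neuron markers, 3 (SYT1, MAP2 and TUBB3) reached a mean of 1 FPKM, and NEFL was at 0 in every library. The list summed to 39.7 to 42.6 FPKM in shCtrl and 22.1 to 28.2 FPKM in shHOTAIR, a difference made by SYT1 (26.6 ± 0.781 against 12.6 ± 1.56 FPKM, adjusted p = 0.00189), while MAP2 and TUBB3 overlapped between groups and SNAP25 and RBFOX3, both low, lay higher in shHOTAIR. None of 4 leukocyte and none of 3 endothelial markers reached that level, and 2 of 5 fibroblast markers did (COL1A1 and PDGFRB).

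MDA-MB-231 cells transcribed few clustered protocadherins at an appreciable level. Averaged over the 6 libraries, 6 of the 53 genes reached 1 FPKM, 25 lay between 0.1 and 1 FPKM, and 22 lay below 0.1 FPKM. The share at or above 1 FPKM was 11.3%, against 58.9% of the 19669 protein-coding genes in the table. The median over the 53 genes was 0.178 FPKM. In 44 genes every library had a value above 0, and 9 genes were listed at 0 in at least 1 library.

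The alpha cluster was the lowest of the clusters. No alpha gene exceeded 0.505 FPKM in any library, 11 of the 15 had a mean below 0.1 FPKM, and the median was 0.0403 FPKM. Its highest members were PCDHAC2, at a mean of 0.31 FPKM, and PCDHA4, at 0.285 FPKM. PCDHAC2 and PCDHAC1 are the C-type alpha genes, which in neurons are known to be expressed by most cells rather than chosen at random. PCDHAC1 had a mean of 0.167 FPKM. PCDHA5 was the lowest, with 0.0344 FPKM in shCtrl 2 and 0 in the other 5 libraries.

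The beta cluster was the highest in summed FPKM, and PCDHB2 held 46.3% of its sum. PCDHB2 had 8.2, 7.43 and 8.77 FPKM in shCtrl and 7.86, 7.66 and 9.27 FPKM in shHOTAIR. These ranges overlap, and no other clustered protocadherin came above 5.26 FPKM in any library. PCDHB9 followed at 2.65, 2.09 and 2.8 FPKM in shCtrl and 3.15, 2.38 and 3.31 FPKM in shHOTAIR, and the groups overlapped there too. PCDHB14 had a mean of 1.43 FPKM. PCDHB1, the first gene of the cluster, was the lowest, at 0.0183 to 0.039 FPKM. The median beta gene had 0.514 FPKM, and 10 of the 16 lay between 0.1 and 1 FPKM.

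In the gamma cluster PCDHGB2 and PCDHGC3 together held 60.0% of the sum. PCDHGC3 is a C-type gamma gene, again of the kind that neurons use broadly. It stood at 4.54, 4.65 and 4.37 FPKM in shCtrl against 3.71, 3.8 and 4.11 FPKM in shHOTAIR. The other C-type gamma genes were near the bottom, PCDHGC4 at a mean of 0.0657 FPKM and PCDHGC5 at 0.0322 FPKM. PCDHGB1 measured 1.47, 1.26 and 1.42 FPKM in shCtrl and 1.32, 1.43 and 1.47 FPKM in shHOTAIR, with overlapping groups. The median gamma gene had 0.221 FPKM, and PCDHGB5 was the lowest at 0.0305 FPKM.

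**Figure D1:**
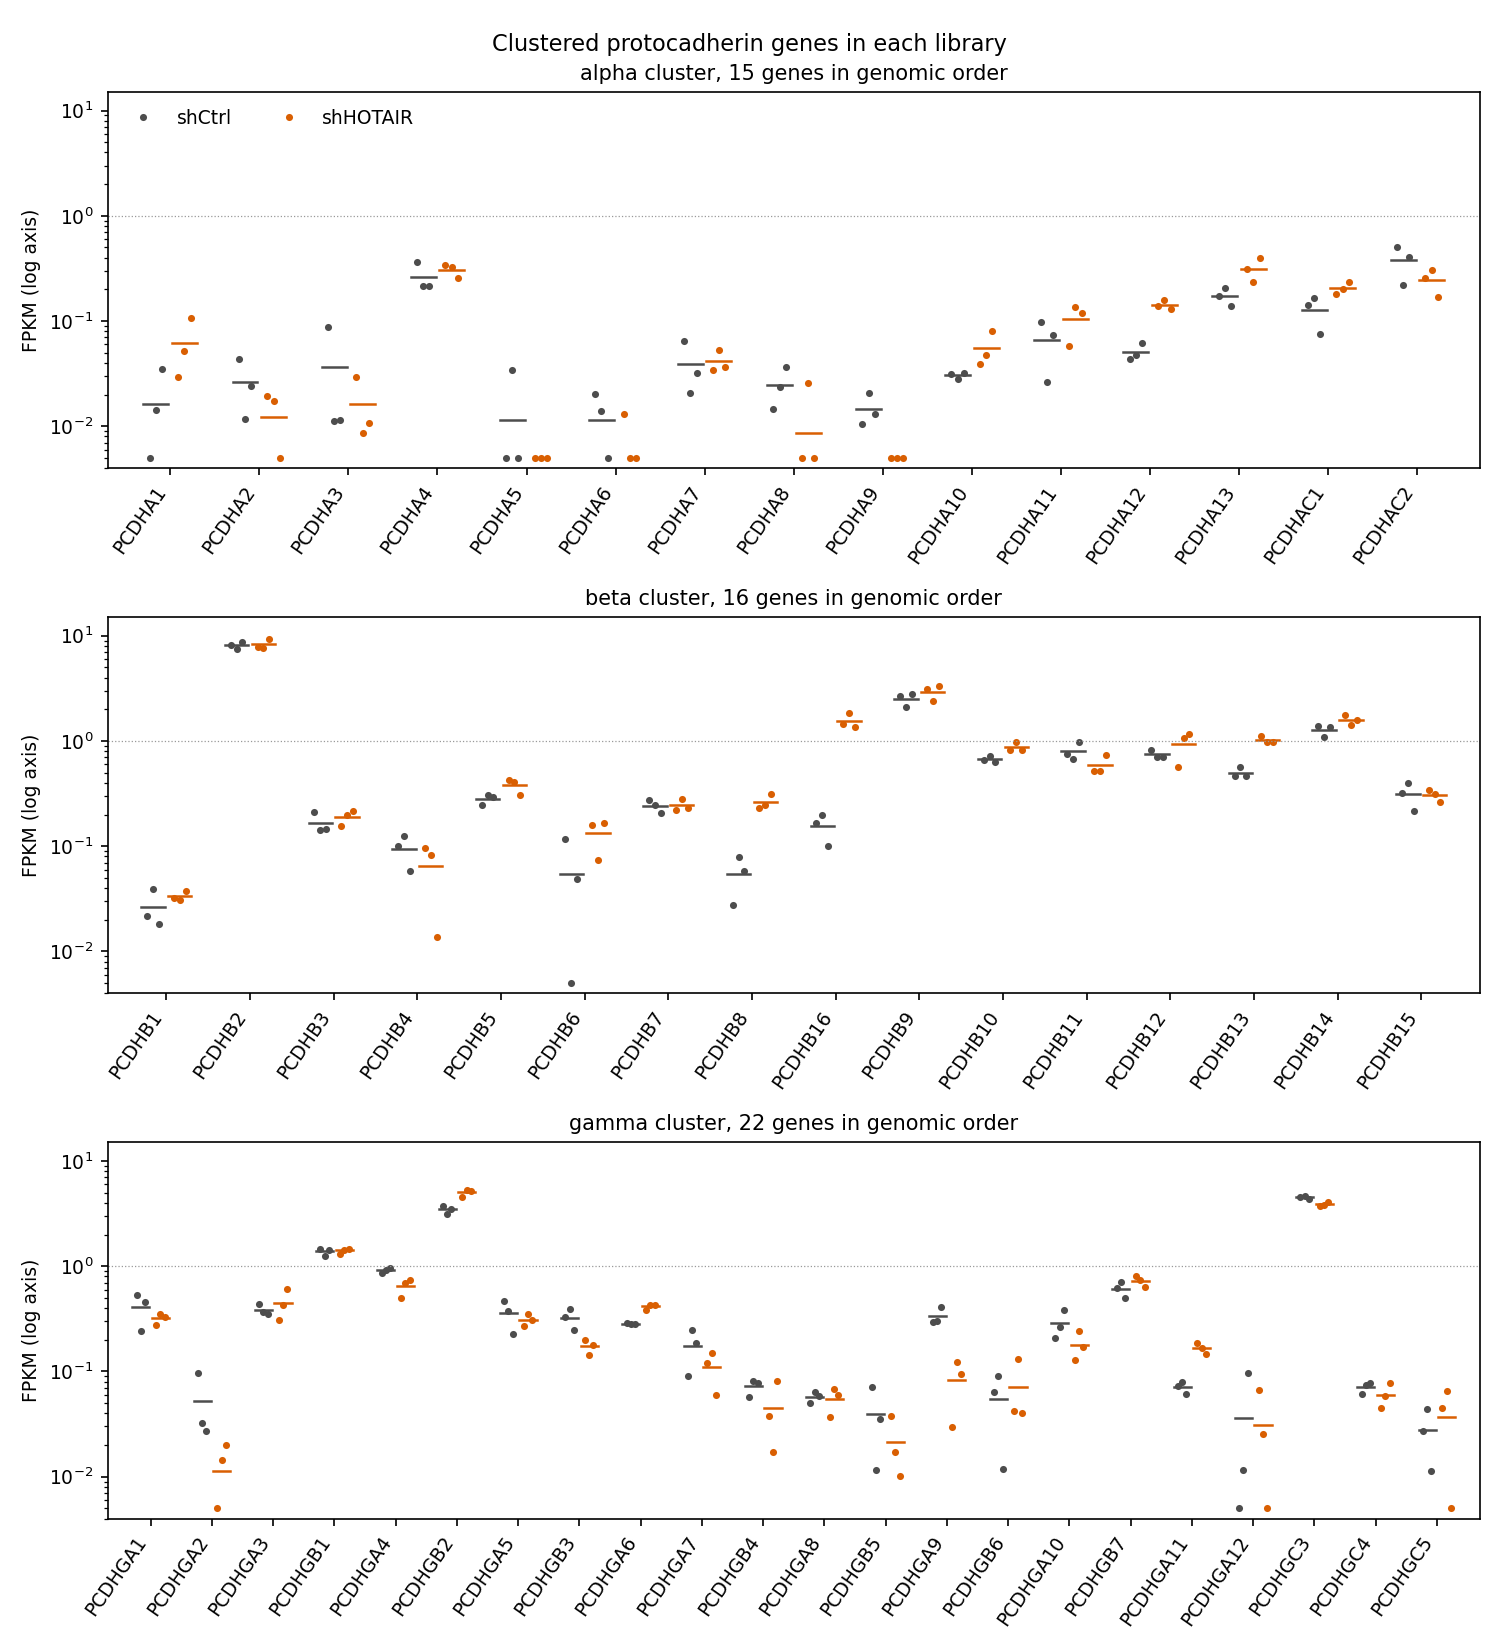
FPKM of the 53 genes in genomic order (log axis, 1 panel per cluster), with 1 point per library, dark for shCtrl and orange for shHOTAIR, and a bar at each group mean; values under 0.005 are drawn at 0.005 and the dotted line marks 1 FPKM. PCDHB2, PCDHGB2 and PCDHGC3 stand highest, the alpha genes stay under 1 FPKM, and PCDHB16 and PCDHB8 show separate groups.

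The comparison of shHOTAIR with shCtrl asks how these genes differed when the hairpin was directed at HOTAIR. Few of them passed the test, and those that did were higher in shHOTAIR: PCDHB16, PCDHB8 and PCDHGB2. Because most members are below 1 FPKM, 2 limma fits were read. One took the 15934 genes that averaged at least 1 FPKM (expressed genes) on the log2(FPKM + 1) scale, and the other took all 36141 genes above 0 in any library on the log2(FPKM + 0.1) scale. Both used Benjamini-Hochberg adjustment over all genes tested and a threshold of 0.05. In the fit of expressed genes, 1 of the 6 members tested passed (PCDHGB2, higher), where 23.8% of all genes tested passed, 11.5% higher and 12.4% lower. In the fit of all genes, 3 of 53 members passed (5.66%), all higher, where 9.27% of all genes passed, 4.72% higher and 4.55% lower. By cluster the calls were 0 of 15 in alpha, 2 of 16 in beta and 1 of 22 in gamma. So the members were called no more often than genes at large. In this fit 8 of the 53 members had an unadjusted p under 0.05, as did 21.7% of all genes.

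The signs of the fitted changes differed by cluster. On the log2(FPKM + 0.1) scale, 13 of 16 beta genes had a positive change, with a median of 0.23. In alpha the signs were 8 positive and 7 negative, with a median of 0.03. In gamma they were 8 positive and 14 negative, with a median of -0.11. The median over all 36141 genes was 0.00. These are descriptions of the lists and most of the single changes did not pass the test.

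**Figure D2:**
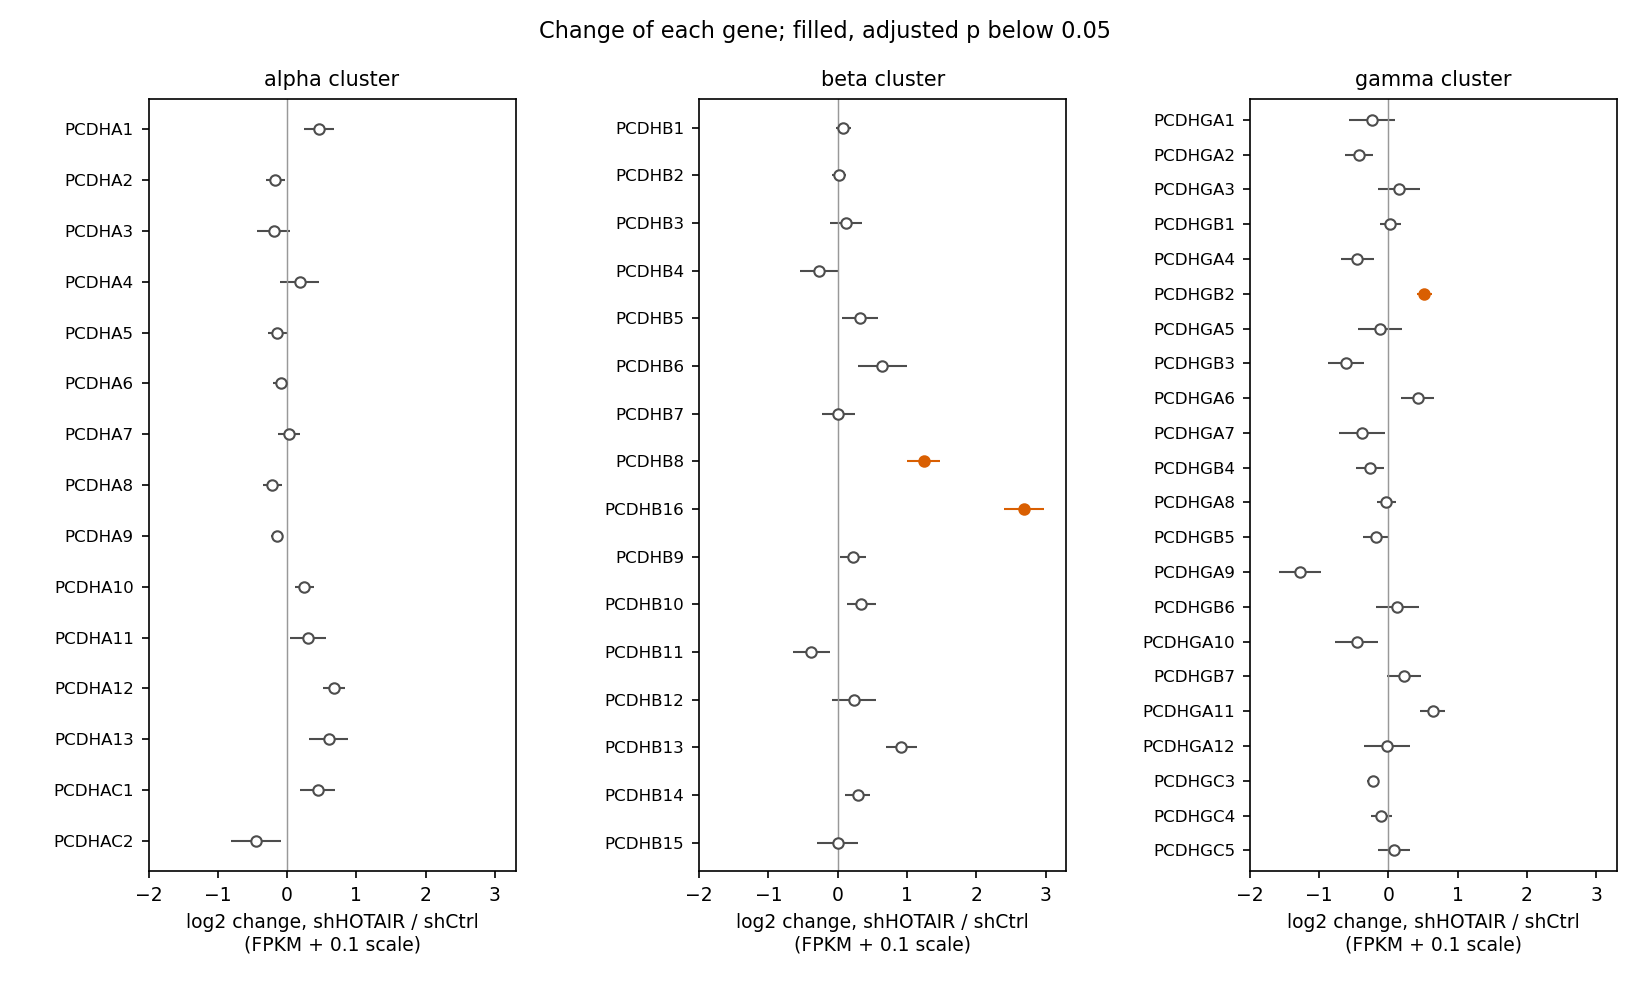
Change of each gene between shHOTAIR and shCtrl on the log2(FPKM + 0.1) scale (points, with the limma standard error as bars), in genomic order from top to bottom within each cluster; filled orange points have an adjusted p below 0.05. PCDHB16, PCDHB8 and PCDHGB2 are the filled points, and most beta genes lie to the right of 0.

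PCDHB16 (ENSG00000272674, chr5:141181399-141186399), a beta gene with a single exon, changed the most. It gave 0.166, 0.198 and 0.101 FPKM in shCtrl against 1.45, 1.83 and 1.35 FPKM in shHOTAIR. The lowest shHOTAIR library lay far above the highest shCtrl library. The mean rose from 0.155 ± 0.0492 to 1.54 ± 0.256 FPKM (SD, n = 3 each), a ratio of 9.94, and on the log2(FPKM + 0.1) scale by 2.69 (SE 0.285, limma adjusted p = 0.00645). It moved from 12th of the 16 beta genes by group mean in shCtrl to 4th in shHOTAIR, after PCDHB2, PCDHB9 and PCDHB14. Its call was kept in each of the 6 fits that left out 1 library.

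Of 4 other transcripts annotated over PCDHB16, only AC244517.4 passed in the fit of all genes, where 9.27% of all genes passed. AC244517.4 is a non-coding gene on the opposite strand (chr5:141183401-141201396) that overlaps PCDHB16, PCDHB9, PCDHB10 and PCDHB11. It had 0.186, 0.377 and 0.156 FPKM in shCtrl and 3.02, 2.15 and 4.26 FPKM in shHOTAIR, and rose by 3.26 on the log2(FPKM + 0.1) scale (SE 0.381, limma adjusted p = 0.00837 in the fit of all genes) and by 1.71 on the log2(FPKM + 1) scale (adjusted p = 0.00575 in the fit of expressed genes). AC244517.6, a processed transcript on the same strand as PCDHB16 (chr5:141182409-141188582), stood at 0.68, 0.0662 and 0.236 FPKM in shCtrl against 1.65, 2.21 and 1.96 FPKM in shHOTAIR. It rose by 1.17 in the fit of expressed genes (SE 0.23, adjusted p = 0.0182), and missed the threshold in the fit of all genes (adjusted p = 0.0639). Both transcripts reached a mean of 1 FPKM only through shHOTAIR, so the fit of expressed genes could take them in only because they differed. Of the others, AC244517.11, on the opposite strand, was listed at 0 in shCtrl and had 0.175, 0.0563 and 0.0947 FPKM in shHOTAIR (adjusted p = 0.0545 in the fit of all genes). AC244517.8, on the same strand, was above 0 in shHOTAIR 2 alone, at 0.423 FPKM (adjusted p = 0.56). Of the 50-base words of PCDHB16, 14.6% also occur in AC244517.4. Nothing in the sources used here states whether strand was used in counting, so reads of PCDHB16 and of these transcripts cannot be told apart with certainty.

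Other genes of the same segment had smaller changes. PCDHB7 measured 0.275, 0.247 and 0.206 FPKM in shCtrl and 0.221, 0.28 and 0.232 FPKM in shHOTAIR. PCDHB9, the next gene after PCDHB16, had overlapping groups and a limma adjusted p of 0.56 in the fit of all genes. PCDHB10 gave 0.66, 0.714 and 0.636 FPKM in shCtrl against 0.828, 0.981 and 0.829 FPKM in shHOTAIR, without overlap, but missed the threshold (adjusted p = 0.433). AC244517.7, an antisense transcript at PCDHB10, had a mean of 0.428 ± 0.125 FPKM in shCtrl and of 0.161 ± 0.0836 FPKM in shHOTAIR (SD, n = 3 each), and missed the threshold as well (adjusted p = 0.172).

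**Figure D3:**
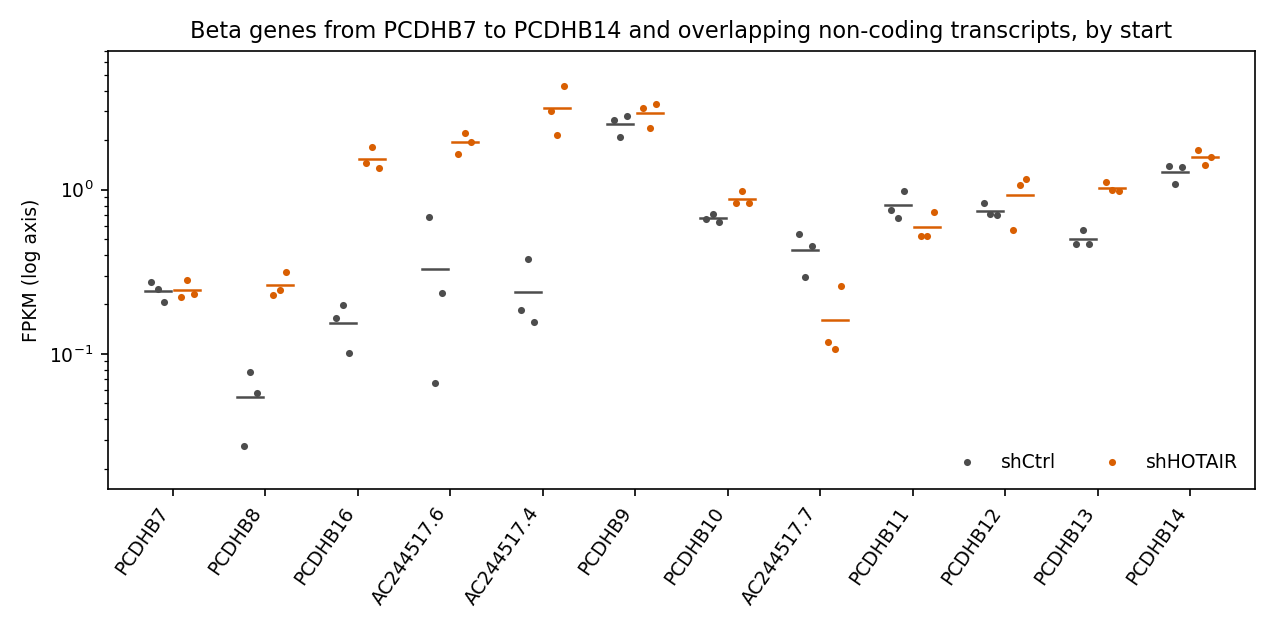
FPKM (log axis) of the beta genes from PCDHB7 to PCDHB14 and of 3 non-coding transcripts that overlap them, ordered by start, with 1 point per library and a bar at each group mean (dark, shCtrl; orange, shHOTAIR). PCDHB16, AC244517.6 and AC244517.4 have shHOTAIR libraries above all shCtrl libraries by a wide gap, while PCDHB7 and PCDHB9 overlap.

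PCDHB8 (ENSG00000120322, chr5:141177790-141180529), the gene just before PCDHB16, rose from a very low level. It had 0.0275, 0.0782 and 0.0578 FPKM in shCtrl and 0.229, 0.246 and 0.316 FPKM in shHOTAIR. All 3 shHOTAIR libraries lay above all 3 shCtrl libraries. The mean rose from 0.0545 to 0.263 FPKM, a ratio of 4.83, and on the log2(FPKM + 0.1) scale by 1.24 (SE 0.235, limma adjusted p = 0.0337). Its values were whole multiples of a common step, which correspond to 2, 7 and 5 fragments in shCtrl and 25, 30 and 32 in shHOTAIR if 1 step is 1 fragment. The call was lost when any 1 of the 6 libraries was left out (adjusted p between 0.0557 and 0.088). PCDHB13, with which PCDHB8 shares the most sequence, stood at 0.467, 0.566 and 0.465 FPKM in shCtrl against 1.12, 0.988 and 0.984 FPKM in shHOTAIR. Its groups did not overlap either, with a change of 0.92 (SE 0.218) that missed the threshold (limma adjusted p = 0.065). How far reads of PCDHB8 and PCDHB13 were exchanged was not tested. AC244517.8, which holds 6.39% of the 50-base words of PCDHB8, and the span of AC244517.11 also lie over PCDHB8. Reads of PCDHB8 and of these transcripts cannot be told apart with certainty.

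PCDHGB2 (ENSG00000253910, chr5:141360042-141512979) was the gamma gene that passed, and the only one of the 6 best-expressed members to do so. It measured 3.77, 3.16 and 3.48 FPKM in shCtrl and 4.57, 5.26 and 5.22 FPKM in shHOTAIR. The groups were separate, and the gap between them, from 3.77 to 4.57 FPKM, was wider than the spread within either. The mean rose from 3.47 ± 0.306 to 5.02 ± 0.384 FPKM (SD, n = 3 each). The log2 change was 0.43 (SE 0.0947, limma adjusted p = 0.0261) in the fit of expressed genes and 0.52 (SE 0.108, adjusted p = 0.0446) in the fit of all genes. In the first fit the call was lost without shCtrl 2 (adjusted p = 0.0731), shCtrl 3 (0.076), shHOTAIR 2 (0.0831) or shHOTAIR 3 (0.0778), and in the second without any 1 library (0.0545 to 0.127). PCDHGB1, the B-type gene before it, had a change of 0.03 (on the log2(FPKM + 0.1) scale, adjusted p = 0.953).

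PCDHGC3 lay opposite to PCDHGB2. Its shHOTAIR values, 3.71 to 4.11 FPKM, were all below its shCtrl values, 4.37 to 4.65 FPKM, with a log2 change of -0.18 (SE 0.0761) that missed the threshold (limma adjusted p = 0.149). In every shCtrl library PCDHGC3 was above PCDHGB2, and in every shHOTAIR library PCDHGB2 was above PCDHGC3. This change of order was read off the values and was not tested. PCDHGB2 and PCDHGC3 share the constant exons of the gamma cluster, and how reads of those exons were assigned is not known.

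Beyond the calls, more members had groups that did not overlap. There were 18 of 53 (34.0%), 12 higher and 6 lower, where 26.4% of all 36141 genes did not overlap, 12.9% higher and 13.5% lower. Among the 6 expressed members there were 3, PCDHB14 and PCDHGB2 higher and PCDHGC3 lower, where 43.0% of the 15934 expressed genes did not overlap, 19.8% higher and 23.1% lower. For each of these single genes the exact two-sided permutation p was 0.1, the smallest that 3 libraries against 3 can give. The 12 that lay higher were PCDHA10, PCDHA12, PCDHA13 and PCDHAC1 in alpha, PCDHB8, PCDHB16, PCDHB10, PCDHB13 and PCDHB14 in beta, and PCDHGB2, PCDHGA6 and PCDHGA11 in gamma. The 6 that lay lower were PCDHA9 in alpha and PCDHGA2, PCDHGA4, PCDHGB3, PCDHGA9 and PCDHGC3 in gamma. None of the 5 separated beta genes lay lower.

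Several of the low genes among these came near the threshold or had large ratios of means without passing the test. PCDHGA9 gave 0.295, 0.3 and 0.409 FPKM in shCtrl against 0.0294, 0.123 and 0.0953 FPKM in shHOTAIR. Every shHOTAIR library was below every shCtrl library, the means differed by a factor of 4.05, and the log2 change was -1.28 (SE 0.303, limma adjusted p = 0.065). In steps this was 20, 25 and 33 against 3, 14 and 9, although the step is smaller in shHOTAIR. PCDHGA11 had 0.0734, 0.0796 and 0.0609 FPKM in shCtrl and 0.185, 0.168 and 0.147 FPKM in shHOTAIR (change 0.64, adjusted p = 0.101). PCDHGA6 stood at 0.29, 0.281 and 0.285 FPKM in shCtrl against 0.386, 0.432 and 0.427 FPKM in shHOTAIR, a narrow spread within each group (change 0.42, adjusted p = 0.387). PCDHGB3 had means of 0.322 ± 0.0721 FPKM in shCtrl and 0.175 ± 0.0286 FPKM in shHOTAIR and PCDHGA4 of 0.911 ± 0.0501 and 0.647 ± 0.127 FPKM (SD, n = 3 each), with adjusted p of 0.268 and 0.354 in limma.

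The groups overlapped in the other 35 members. Among the beta genes this held for PCDHB12 (0.566 to 1.16 FPKM over the 6 libraries), PCDHB11 (0.519 to 0.977), PCDHB5 (0.249 to 0.427), PCDHB15 (0.215 to 0.401), PCDHB3 (0.144 to 0.214), PCDHB4 (0.0138 to 0.125) and PCDHB6 (0 to 0.167), besides PCDHB1, PCDHB2, PCDHB7 and PCDHB9. Among the gamma genes it held for PCDHGB7 (0.5 to 0.809 FPKM), PCDHGA3 (0.311 to 0.603), PCDHGA1 (0.243 to 0.531), PCDHGA5 (0.228 to 0.469), PCDHGA10 (0.129 to 0.383) and PCDHGA7 (0.0599 to 0.25), for PCDHGB1, and for PCDHGB4, PCDHGA8, PCDHGB5, PCDHGB6, PCDHGA12, PCDHGC4 and PCDHGC5, whose means lay below 0.1 FPKM. Among the alpha genes it held for PCDHA4 (0.215 to 0.361 FPKM), PCDHAC2 (0.169 to 0.505) and PCDHA11 (0.0265 to 0.136), and for PCDHA1, PCDHA2, PCDHA3, PCDHA5, PCDHA6, PCDHA7 and PCDHA8, whose means lay below 0.1 FPKM.

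In the alpha cluster PCDHA12 (chr5:140875302-141012344) came nearest to a call. It measured 0.0439, 0.0476 and 0.0615 FPKM in shCtrl and 0.139, 0.157 and 0.131 FPKM in shHOTAIR. The groups were separate, with a change of 0.68 (SE 0.16, limma adjusted p = 0.0627). AC005609.3, an antisense transcript whose span (chr5:140875346-140875922) begins just inside PCDHA12, was listed at 0 in every shCtrl library and reached 0.124, 0.0557 and 0.134 FPKM in shHOTAIR, and passed in the fit of all genes (adjusted p = 0.0327). It was above 0 only in shHOTAIR, so that fit could take it in only because it differed. Its values are very low for so short a span, and how many fragments they stand for is not known. That transcript also lies within the spans of PCDHA1 to PCDHA11, which run to the same constant exons. Of the 50-base words of PCDHA12, 9.77% also occur in AC005609.3. Because the use of strand is not stated, reads of the pair cannot be told apart with certainty. PCDHA13 gave 0.174, 0.204 and 0.138 FPKM in shCtrl against 0.313, 0.234 and 0.397 FPKM in shHOTAIR (adjusted p = 0.291). It was the highest alpha gene by mean in shHOTAIR, where in shCtrl it followed PCDHAC2 and PCDHA4.

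Summed over each cluster, the beta genes were higher in shHOTAIR. The beta sum was 16.4, 14.8 and 16.9 FPKM in shCtrl and 18.9, 18.5 and 20.8 FPKM in shHOTAIR, without overlap, a difference of 3.35 FPKM or 20.9%. PCDHB16 gave 1.39 FPKM of that difference, PCDHB13 0.532, PCDHB9 0.432 and PCDHB14 0.308, while PCDHB2, the highest gene, gave 0.126. The alpha sum was 1.6, 1.06 and 1.15 FPKM in shCtrl and 1.45, 1.56 and 1.55 FPKM in shHOTAIR, and overlapped because shCtrl 1 was the highest of the 6. Without PCDHAC2, the highest alpha gene over the 6 libraries, it was 1.09, 0.837 and 0.747 FPKM in shCtrl and 1.2, 1.26 and 1.38 FPKM in shHOTAIR, without overlap. By group mean PCDHAC2 was the highest alpha gene only in shCtrl (0.378 FPKM, against 0.243 FPKM in shHOTAIR). Leaving it out takes more from the shCtrl sum, so this separation was partly built in. The gamma sum was 14.4, 13.6 and 13.7 FPKM in shCtrl and 13.1, 14.7 and 14.8 FPKM in shHOTAIR, also overlapping. The gamma sum combined members of opposite sign. Without PCDHGB2 it was 10.6, 10.5 and 10.2 FPKM in shCtrl and 8.57, 9.45 and 9.57 FPKM in shHOTAIR, lower in all 3 shHOTAIR libraries by a mean of -1.26 FPKM. PCDHGB2 was the highest gamma gene over the 6 libraries (4.24 FPKM, PCDHGC3 4.2), but by group mean only in shHOTAIR. Leaving out a gene that was higher in shHOTAIR lowers the rest of the shHOTAIR sum, so this separation was partly built in. The gamma sum without PCDHGC3 was not read. The alpha and gamma sums depend on how reads of the shared constant exons were assigned, which is not known. The beta sum includes PCDHB16, whose reads cannot be told apart with certainty from those of transcripts over it. No p is given for sums. In bulk RNA a change in the fraction of cells that transcribe a gene cannot be told apart from a change per cell.

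**Figure D4:**
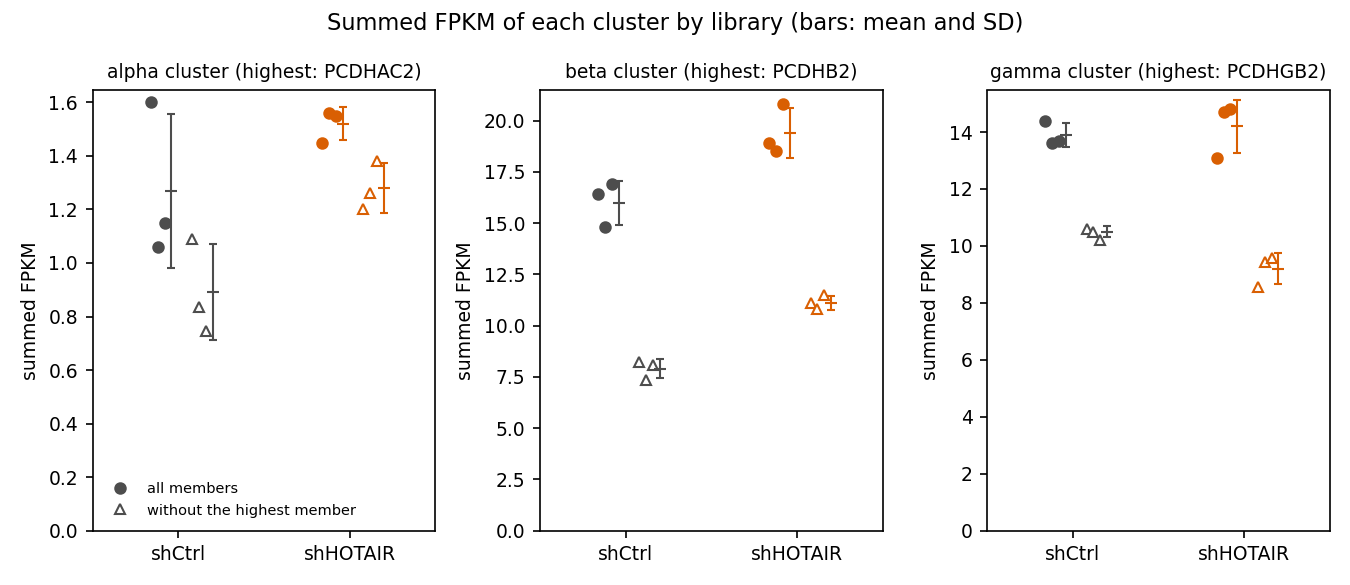
Summed FPKM of the alpha, beta and gamma genes in each library (filled circles, all members; open triangles, without the highest member; bars, mean and SD of 3 libraries; axes start at 0). The beta sums separate the groups with and without PCDHB2, the alpha sums separate them without PCDHAC2, with shHOTAIR higher, and the gamma sums without PCDHGB2, with shHOTAIR lower. By mean PCDHAC2 was itself higher in shCtrl and PCDHGB2 in shHOTAIR, so the alpha and gamma separations are partly built in.

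The number of members seen at a group mean of at least 0.1 FPKM was 4 in shCtrl and 6 in shHOTAIR for alpha, 12 and 14 for beta, and 13 and 13 for gamma. PCDHA11, PCDHA12, PCDHB6 and PCDHB8 crossed that level upwards. In gamma PCDHGA11 crossed upwards and PCDHGA9 downwards. The deeper shHOTAIR libraries moved with the upward crossings in alpha and beta, and the part of depth in them was not tested.

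For 11 members the values in all 6 libraries were whole multiples of 1 step (within 0.03 of a step). In the beta genes PCDHB1, PCDHB7 and PCDHB8, whose exons are unshared, the step times the exonic bases was 35.8, 36.9 and 37.7 FPKM times bases. With only the exon that no other member overlaps, it lay between 37.5 and 38.3 in PCDHA7, PCDHA8, PCDHGB5, PCDHGA9, PCDHGA12 and PCDHGC5, and with all exonic bases between 68.1 and 79.4. In the other two, PCDHA9 and PCDHGB7, it was 4.7 and 75.3 with the unshared exon and 6.57 and 134.0 with all exonic bases, so the pattern does not hold for every member.

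Genes that act on the protocadherin promoters or process the proteins were read in the fit of expressed genes, in which 23.8% of all genes passed. Of 24 regulators, 23 were tested, 2 rose and 4 fell. STAG2, a cohesin subunit, rose by 0.72 (limma adjusted p = 0.00631). The falls were WAPL, the cohesin release factor (-0.52, adjusted p = 0.00231), SMC3, a cohesin subunit (-0.36, 0.00373), TET3, a methylcytosine oxidase (-0.28, 0.0428), and PDS5A, a cohesin regulator (-0.19, 0.0498). CTCF, which binds at the promoters and enhancers of the clusters, had 22.2, 26.6 and 25.5 FPKM in shCtrl and 31.9, 26.8 and 25.6 FPKM in shHOTAIR, with overlapping groups and a change of 0.17 (adjusted p = 0.311). SMCHD1, a silencer of the clusters, had a change of 0.19 (adjusted p = 0.0508) and RAD21, a cohesin subunit, one of 0.15 (0.0621), both just short of the threshold. In the fit of all genes TET3 and PDS5A missed the threshold (limma adjusted p = 0.0667 and 0.0774).

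Of 16 genes for the proteins that cleave protocadherins or act under them, 14 were tested, 3 rose and 2 fell. NCSTN, a gamma-secretase subunit, rose by 0.40 (limma adjusted p = 0.00766), ADAM10, the sheddase, by 0.32 (0.0452) and PTK2, the kinase FAK, by 0.29 (0.022). ABI1 and CYFIP1, subunits of the WAVE complex that regulates actin, had changes of -0.71 (0.0027) and -0.24 (0.0335). ADAM10 and CYFIP1 missed the threshold in the fit of all genes (limma adjusted p = 0.0828 and 0.0528).

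The protocadherins that lie outside the clusters were mostly low as well. Of 11 such genes 2 reached a mean of 1 FPKM, PCDH20 only through shHOTAIR. In the fit of all genes, where 9.27% of all genes passed, 10 of the 11 were tested, 1 (PCDH20) rose and none fell. PCDH20 stood at 0.481, 0.576 and 0.525 FPKM in shCtrl against 3.9, 3.52 and 3.54 FPKM in shHOTAIR, with no overlap (change 2.58 on the log2(FPKM + 0.1) scale, SE 0.156, limma adjusted p = 0.00175). PCDH7 measured 3.4, 3.94 and 2.32 FPKM in shCtrl and 5.29, 7.06 and 5.83 FPKM in shHOTAIR (change 0.91, SE 0.225, adjusted p = 0.0722), and passed only in the fit of expressed genes (change 0.75, adjusted p = 0.0334).

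The genes around the clusters were read in the fit of expressed genes, where 23.8% of all genes passed. Of 38 protein-coding neighbours within 1000000 bases of the clusters, 29 were tested, 2 rose and 3 fell, and the median change was -0.18, where that of all expressed genes was -0.03. TAF7, a general transcription factor gene between the beta and gamma clusters, fell by 0.22 on the log2(FPKM + 1) scale (limma adjusted p = 0.0259). DIAPH1, an actin nucleator gene next to the end of the gamma cluster, gave 78.3, 82.6 and 77.8 FPKM in shCtrl against 79.0, 81.9 and 74.3 FPKM in shHOTAIR, and its groups overlapped. WDR55 and RNF14 also fell (changes of -0.30 and -0.25), and HBEGF, an EGFR ligand gene, and SPRY4, an inhibitor of receptor signalling, rose by 1.03 and 0.25. RNF14 missed the threshold in the fit of all genes (limma adjusted p = 0.0521). The 6 annotated pseudogenes of the clusters were all below 1 FPKM, and none passed in the fit of all genes.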

How the data were processed

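Poly(A) RNA of 6 MDA-MB-231 libraries, 3 shCtrl and 3 shHOTAIR, was sequenced, and each library took its group from the hairpin its label names. The authors deposited 1 table of FPKM values, and their program, annotation and use of strand are not stated in the sources used here. TopHat2 2.0.13, DESeq and GRCh38 are named in the submitters' processing notes, with no role stated. Of 65198 rows, 56807 matched GENCODE 29 by identifier. Values under 1e-06, whose origin is not known, are given as 0, while the fits used the values as deposited. Genes were tested with limma 3.58.1 in R 4.3.3 (intensity trend, no replicate block), adjusted over all genes tested, with the filters and pseudocounts given above; the script was tested on simulated data. A call is an adjusted p under 0.05. Fold changes on a log2(FPKM + pseudocount) scale understate those of low genes, and ratios are of mean FPKM. The relative step of each library is the commonest ratio to shCtrl 1 of values between 0.001 and 0.1 FPKM (within 0.01 in log2), which 478 to 601 of 2184 to 2352 genes had. Shared sequence was counted as 50-base words of GENCODE 29 transcripts. Named genes were every member with a mean of at least 1 FPKM or a call, the C-type members, the highest and lowest of each cluster, and other members from 0.1 FPKM in part by range or count. In the context lists they were the 3 smallest p, CTCF, RAD21, SMCHD1, TAF7, DIAPH1 and members of counts up to 5, of which 1 is not reported here. The members, lists and tests were chosen with earlier results of these data known, and non-overlapping members and overlapping transcripts were named after their values were seen. Alternatives were other pseudocounts, filters, scalings and limma settings, a replicate block and each library left out. Python 3.11.15 with numpy 2.4.6, pandas 2.3.3 and scipy 1.17.1 was used for the rest.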

Additional observations from a re-analysis of the deposited data

How the results depend on the processing

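PCDHB16 was called in 13 of 14 alternatives (adjusted p 0.00262 to 0.0652), PCDHB8 in 4 of 14 (0.018 to 0.134) and PCDHGB2 in 8 of 14 in the fit of expressed genes (0.0207 to 0.107) and 5 of 14 in the fit of all genes (0.0332 to 0.193). In the fit of all genes the members called were 7 without an intensity trend and 6 with a pseudocount of 1. In the fit of expressed genes they were 6 with no filter, which lets in all 53, and 0 with a minimum mean of 5 FPKM, which leaves PCDHB2 alone. PCDHB13 was called in 5 of 14 alternatives, PCDHGA9 and PCDHGA11 in 2 of 14 each, and PCDHA12 in 2 of 13. With 1 library left out, 2470 to 3159 genes and 0 to 1 members passed in the fit of expressed genes, and 1866 to 2690 genes and 1 member in the fit of all genes, against 3797 and 3350 genes with all 6.

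Replicate numbers are shared between the groups, but the deviations of same-numbered libraries from their group means did not correlate (r = -0.0221, 0.00696 and -0.0307), so the numbers were not taken as pairs. With the replicate block 1740 genes and 0 members passed in the fit of expressed genes, and 25 genes and 0 members in the fit of all genes.

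Changes near 0 turned sign: PCDHGB1 to -0.04 under quantile normalization, -0.02 without shCtrl 2 and -0.003 without shHOTAIR 3 (-0.02 to 0.04 with 1 library left out), and PCDHB2 to -0.04 without shCtrl 2 and -0.06 without shHOTAIR 3 (-0.06 to 0.07). At a minimum of 0.5 FPKM in place of 0.1, 0 alpha genes were seen in either group, 6 and 8 beta genes, and 5 and 5 gamma genes (shCtrl, then shHOTAIR). The difference of the gamma sum was 0.286 FPKM, -1.26 without PCDHGB2 (itself higher in shHOTAIR), and -0.0013 to 0.823 with 1 library left out.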
